A study of Mus musculus with 16 samples.

Results

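Myosin light chains, myosin light chain kinase and actins were followed in the hippocampus of newborn (P1) and P30 mice, WT or *Mef2c*-het. P stands for the postnatal day. The 9 genes listed were *Myl1*, *Myl4*, *Myl6*, *Myl9*, *Mylk*, *Actb*, *Actg1*, *Acta2* and *Actc1*. Every probe that the deposited Illumina beadchip table names by one of these symbols was taken, which gave 17 of 25697 probes, for 8 of the 9 genes, out of 17871 genes in all. *Myl9* has no expression value here and is described by its promoter alone. In GRCm38.p6 *Myl1* lies at chr1:66924295-66947932, *Mylk* at chr16:34745199-35002436, *Actb* at chr5:142903115-142907976 and *Acta2* at chr19:34240336-34255585, and where in these genes a probe lies is not given in the sources used here. The genes were selected on the genotype difference at P30, in which *Myl1* and an *Actb* probe were lower in *Mef2c*-het mice, so that difference is described below and carries no test.

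The data hold 16 arrays with 1 mouse on each, in 4 groups of 4: WT at P1, *Mef2c*-het at P1, WT at P30 and *Mef2c*-het at P30. The *Mef2c*-het mice, called KO in the labels, carry 1 *Mef2c* allele that lacks exon 2 in every cell, on a C57BL/6J background, and the WT mice are littermates. The labels name no treatment. RNA came from whole hippocampus, so that fewer cells of a type and less RNA per cell cannot be told apart.

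Each array detected between 12638 and 14150 probes at a detection p under 0.05 against negative control beads, and the test took in the 14777 probes that 4 or more of the 16 arrays detected. Within each age the arrays were divided by the correlation of their signals into a larger and a smaller cluster. Only the number of clusters was set beforehand. Which arrays fell into each came from these same signals, so the clusters are not a known batch. At P1 the smaller cluster held 1 array each of WT and *Mef2c*-het mice. At P30 it held 2 of WT and 1 of *Mef2c*-het mice. The labels give no sex. *Xist* and Y-linked probes read all 4 mice of each P30 group as male, against 1 of 4 WT and 2 of 4 *Mef2c*-het mice at P1, so that part of the age difference coincides with sex. Of the hippocampal markers, *Wfs1* of area CA1 and *Prox1* of the dentate gyrus were among the 6 probes tested. The log2 of the summed linear signal of 9 choroid plexus marker probes, of which *Ttr* was the brightest, varied widely within groups. It ranged from 12.8 to 15.1 in WT at P1 and from 10.89 to 14.49 in WT at P30, against 11.45 to 14.77 and 11.32 to 12.35 in *Mef2c*-het mice.

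Of 3 probes for *Mef2c* itself, ILMN_2887992 averaged 8.72 ± 0.17 (log2 signal, SD, n = 4) in WT mice of P30 and 8.42 ± 0.37 in *Mef2c*-het mice of that age. At P1 the values were 8.39 ± 0.09 and 8.46 ± 0.25. A further probe, ILMN_2732465, gave 9.71 ± 0.11 and 9.46 ± 0.45 at P30, and 9.52 ± 0.10 and 9.51 ± 0.25 at P1. The genotypes overlapped for these probes at both ages. The third probe was detected on at most 1 array of a group. Whether any of them lies in the deleted exon is not given in the sources used here, so they do not check the genotype.

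Myosin is a motor of heavy chains that carry light chains at their neck. The essential light chains stiffen the neck, and phosphorylation of the regulatory ones by myosin light chain kinase switches on the myosin of smooth muscle and of cells outside muscle. Actins polymerise into the filaments on which myosin pulls. Beta-actin and gamma-actin are made in nearly every cell and fill growth cones and dendritic spines in neurons, whereas the alpha-actins mark muscle, with smooth muscle alpha-actin found around arteries in the brain. MEF2 factors are best known as activators of muscle genes of this kind, together with serum response factor (SRF), which binds a sequence element called the CArG box in the promoters of many actin and myosin genes.

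To set the members beside these elements, the promoters from 250 bases before to 50 bases after each annotated start were taken from RefSeq (GRCm38.p6) and searched on both strands for the CArG box and the MEF2 site. The table held 9 promoters of 8 of the 9 members, all but that of *Actb*. The CArG box was read strictly as CCWWWWWWGG and the MEF2 site as YTAWWWWTAR, where W is A or T, Y is C or T and R is A or G. A CArG box of this form was found in a promoter of *Myl6*, *Myl9*, *Actg1* and *Actc1*, against 1.63% of all 32851 promoters of the same length. Near matches were not counted, such as ccctatatgg and ccttgtttgg in the *Acta2* promoter, which each break the CArG pattern at a single base. The MEF2 site in its strict form was found in none of the 9, against 3.19% of all, and 9 promoters are few. Near matches were not counted here either, such as ccatttatag in the *Myl1* promoter, which breaks the MEF2 pattern at a single base. The 3 lines with capitals are shown because they hold a CArG box and belong to genes with a probe. *Myl1* is shown because, of the members, its signal lay furthest below WT in *Mef2c*-het mice at P30. Capitals mark the CArG box. Its first base lies at position -50 of the *Myl6* promoter printed here, at -90 of that of *Actg1* and at -47 of that of *Actc1*. Positions are counted from the annotated start as 0. The other *Myl6* promoter, chr10:128493837-128494136, holds no CArG box of this form. Starts other than those of the 9 promoters were not searched. A match describes the letters of this window and not a bound site.
*Myl1* promoter, chr1:66945007-66945306, minus strand: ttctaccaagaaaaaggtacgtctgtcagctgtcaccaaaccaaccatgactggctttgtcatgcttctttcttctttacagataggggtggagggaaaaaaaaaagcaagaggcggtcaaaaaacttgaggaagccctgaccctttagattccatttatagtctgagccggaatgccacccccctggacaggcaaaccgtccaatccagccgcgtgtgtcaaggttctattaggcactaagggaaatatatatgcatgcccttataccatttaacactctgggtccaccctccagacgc
*Myl6* promoter, chr10:128492960-128493259, minus strand: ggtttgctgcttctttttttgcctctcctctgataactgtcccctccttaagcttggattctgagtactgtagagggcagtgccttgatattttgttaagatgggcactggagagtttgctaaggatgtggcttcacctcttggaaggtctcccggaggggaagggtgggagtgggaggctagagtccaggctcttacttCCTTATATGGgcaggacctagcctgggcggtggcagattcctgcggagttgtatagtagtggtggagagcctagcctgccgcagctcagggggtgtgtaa
*Actg1* promoter, chr11:120348446-120348745, minus strand: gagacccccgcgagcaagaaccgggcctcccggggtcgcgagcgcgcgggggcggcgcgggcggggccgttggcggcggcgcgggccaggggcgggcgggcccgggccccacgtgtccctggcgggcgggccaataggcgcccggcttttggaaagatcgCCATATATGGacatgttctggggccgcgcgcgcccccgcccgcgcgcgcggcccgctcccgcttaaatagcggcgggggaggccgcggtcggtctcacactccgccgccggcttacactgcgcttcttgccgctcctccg
*Actc1* promoter, chr2:114052826-114053125, minus strand: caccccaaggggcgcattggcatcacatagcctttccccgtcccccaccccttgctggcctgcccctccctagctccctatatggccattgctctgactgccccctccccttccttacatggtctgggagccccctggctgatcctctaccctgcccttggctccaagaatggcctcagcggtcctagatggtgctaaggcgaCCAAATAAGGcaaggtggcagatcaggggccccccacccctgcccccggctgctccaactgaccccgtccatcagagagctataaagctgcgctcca

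Of the 17 member probes, 12 passed the detection filter and were tested. The other 5 were detected on none of the 16 arrays: both probes of *Actc1*, the cardiac alpha-actin, 1 of 2 probes of *Myl1* and 2 of 5 probes of *Actb*. Their log2 signals lay near the lower end of the scale, for example between 6.82 and 7.26 for *Actc1* ILMN_2598916 and between 6.90 and 7.09 for *Myl1* ILMN_2694907, and no difference is read from them. The probes of *Actb* therefore disagreed, with 3 of 5 above background and 2 not well above background in any group, and levels are not set against each other between probes. All values below are log2 signals after quantile normalization, and because no background was subtracted, differences of dim probes are understated.

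**Figure D1:**
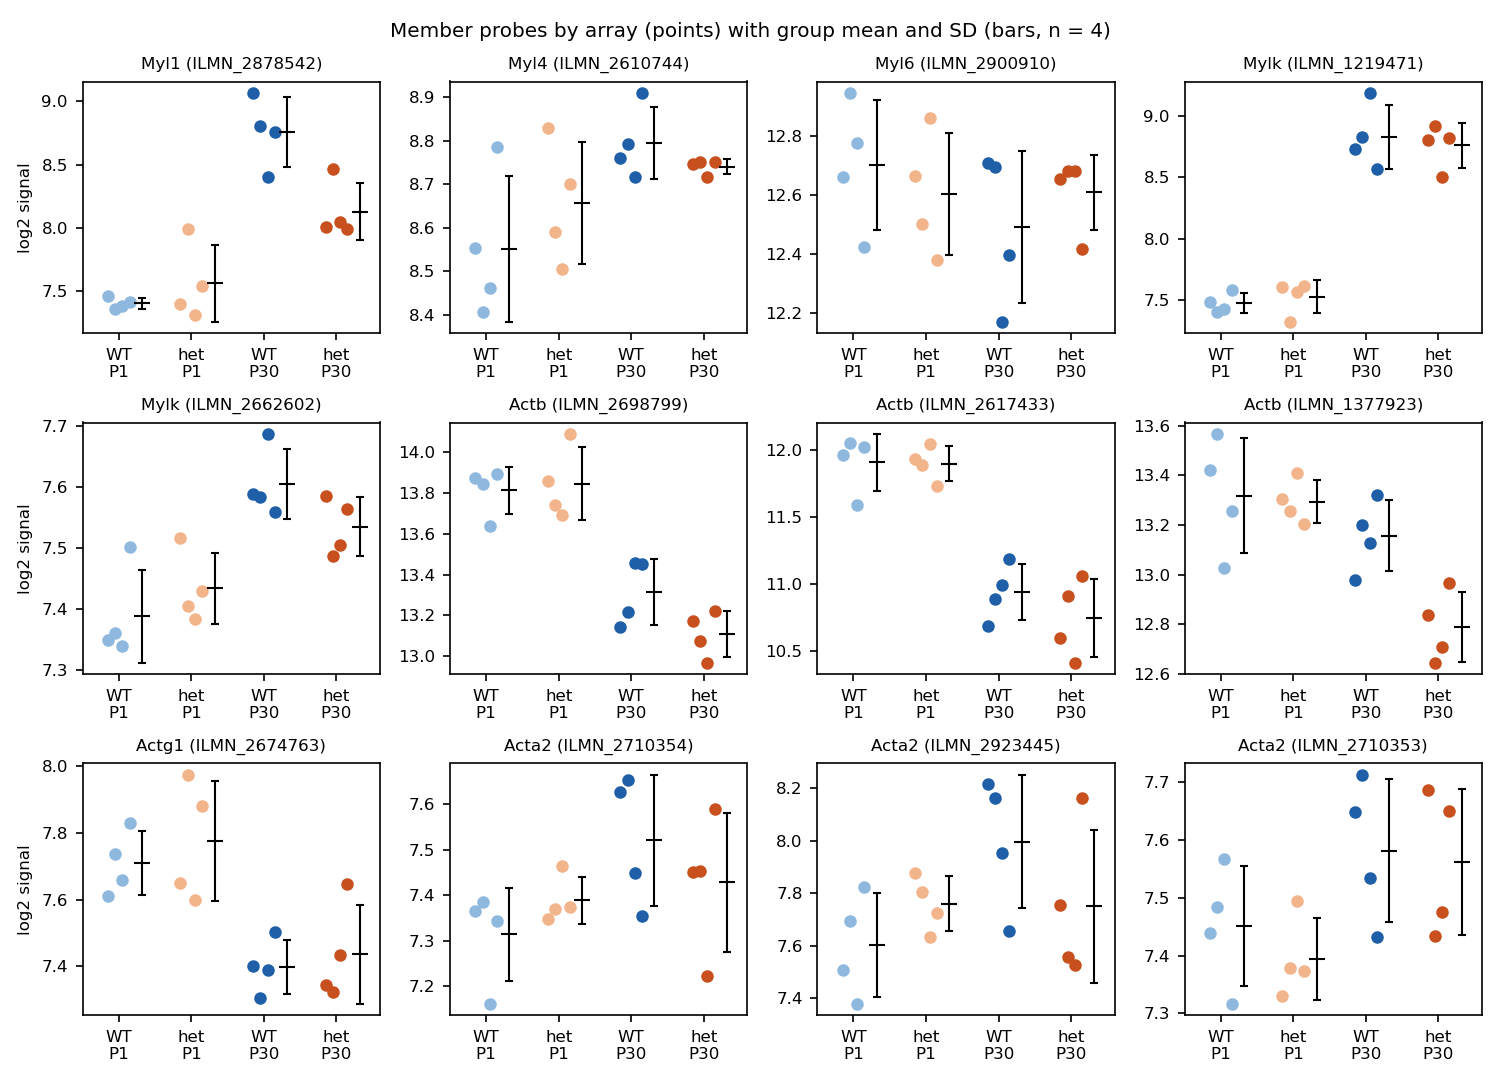
Log2 signal (vertical axis, scaled separately for each probe) of the 12 tested member probes in the 4 groups, with *Mef2c*-het written as het. Points are arrays, drawn in the order of their replicate numbers, and bars give the group mean and SD (n = 4). *Myl1* at P30 lay between 8.40 and 9.07 in WT and between 7.99 and 8.47 in *Mef2c*-het mice.

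*Myl1*, the essential light chain of fast skeletal muscle, was higher at P30 than at P1 in both genotypes. Probe ILMN_2878542 read 7.46, 7.36, 7.38 and 7.41 on the WT arrays at P1 and 9.07, 8.80, 8.40 and 8.76 on those at P30. The *Mef2c*-het arrays read 7.40, 7.99, 7.31 and 7.54 at P1 and 8.01, 8.47, 8.05 and 7.99 at P30. The WT ages were fully separated, whereas *Mef2c*-het replicate 2 at P1 reached the lowest P30 value of that genotype. The groups were ordered WT P1, *Mef2c*-het P1, *Mef2c*-het P30 and WT P30 from low to high, and the first pair differed by less than the spread of the *Mef2c*-het mice. The probe was detected on all 4 arrays of each group except *Mef2c*-het P1, with 3 of 4.

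The rise of *Myl1* with age in WT was 1.36 ± 0.15 (SE) on the log2 scale, or 2.56-fold, with an adjusted p of 7.69e-07 (limma) and an exact permutation p of 0.0286, the smallest that 4 arrays against 4 can give. In *Mef2c*-het mice it was 0.57 ± 0.15, or 1.48-fold, with an adjusted p of 0.00390 (limma) and an exact permutation p of 0.0571. With male mice only, the rise was 0.35 in *Mef2c*-het mice, with an adjusted p of 0.154 (limma), and the WT rise kept its call. The P30 arrays of these comparisons are those on which *Myl1* was chosen as lower in *Mef2c*-het mice. That choice favours a larger rise in WT and a smaller rise in *Mef2c*-het mice. The p-values of the rises are therefore not independent of it, and the difference between the rises carries no test.

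**Figure D2:**
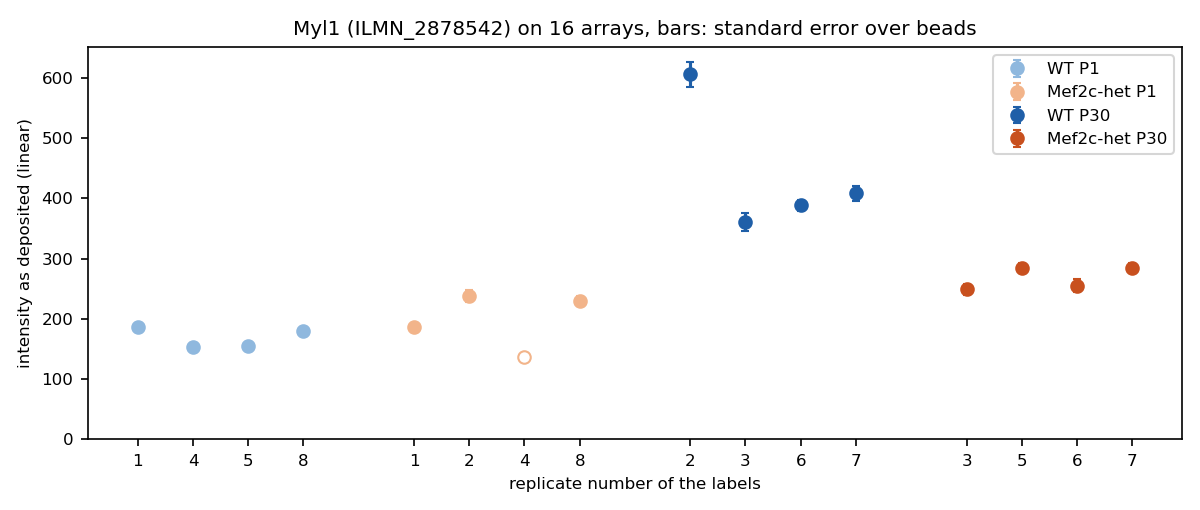
Intensity of the *Myl1* probe ILMN_2878542 as deposited, on a linear scale (vertical axis), on each of the 16 arrays (horizontal axis, replicate numbers of the labels within each group). Bars give the standard error over the beads, and the open point marks the array on which the probe was not detected. Before normalization the WT P30 arrays lay between 360.9 and 606.1 and the *Mef2c*-het P30 arrays between 248.9 and 285.1.

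*Myl4*, the essential light chain of embryonic and atrial muscle, read 8.56, 8.41, 8.46 and 8.79 in WT at P1 and 8.76, 8.79, 8.72 and 8.91 at P30. Among *Mef2c*-het mice the values were 8.83, 8.59, 8.51 and 8.70 at P1 and 8.75, 8.75, 8.72 and 8.75 at P30. The ages overlapped in both genotypes, with WT replicate 8 at P1 inside the range of the P30 arrays. The WT difference of 0.24 ± 0.08 (SE) passed the test, with an adjusted p of 0.0187 (limma), and that in *Mef2c*-het mice was 0.08 ± 0.08, with an adjusted p of 0.41. With male mice only the WT difference was 0.01, with an adjusted p of 0.952, and with sex as a covariate it was 0.15, with an adjusted p of 0.239. The call was also lost with scaling to a common median (0.17, adjusted p of 0.154), without replicate 4 or 5 of WT P1 and without replicate 7 of WT P30.

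*Myl6*, the essential light chain of smooth muscle and of myosin outside muscle, had means of 12.70 ± 0.22 (SD, n = 4) and 12.60 ± 0.21 in WT and *Mef2c*-het mice at P1 and of 12.49 ± 0.26 and 12.61 ± 0.13 at P30. All 4 groups overlapped. The age difference was -0.21 in WT, with a 95% interval from -0.49 to 0.08, and 0.01 in *Mef2c*-het mice, with an interval from -0.28 to 0.29.

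*Mylk*, the calcium and calmodulin dependent kinase of the regulatory light chains, rose with age in both genotypes. Probe ILMN_1219471 read 7.49, 7.40, 7.43 and 7.59 in WT at P1 and 8.73, 8.83, 9.19 and 8.57 at P30. Its *Mef2c*-het values were 7.61, 7.33, 7.57 and 7.61 at P1 and 8.81, 8.92, 8.50 and 8.82 at P30. The ages did not overlap in either genotype, and the genotypes overlapped at each age. The rise was 1.36 ± 0.12 (SE), or 2.56-fold, in WT, with an adjusted p of 3.96e-08 (limma), and 1.23 ± 0.12, or 2.35-fold, in *Mef2c*-het mice, with an adjusted p of 1.31e-07.

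The second *Mylk* probe, ILMN_2662602, was dimmer and moved less. Its means were 7.39 ± 0.08 (SD, n = 4) and 7.61 ± 0.06 in WT at P1 and P30, and 7.43 ± 0.06 and 7.54 ± 0.05 in *Mef2c*-het mice. The WT difference of 0.22 had an adjusted p of 0.00272 (limma) and that in *Mef2c*-het mice of 0.10 had an adjusted p of 0.125. With male mice only the WT difference was 0.10, with an adjusted p of 0.405. Over the 16 arrays the probes of *Mylk* correlated at Pearson's r = 0.859, and at r = 0.569 after removal of the group means, given as a description over arrays that share their normalization.

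*Actb*, the gene of beta-actin, fell with age at 2 of its 3 bright probes in both genotypes. The third, ILMN_1377923, was called lower in *Mef2c*-het mice only, where the choice of the members favours a fall. Probe ILMN_2617433 read 11.96, 12.05, 11.59 and 12.02 in WT at P1 and 10.69, 10.89, 10.99 and 11.19 at P30. For *Mef2c*-het mice the readings were 11.94, 11.89, 12.04 and 11.73 at P1 and 10.60, 10.91, 10.41 and 11.06 at P30. The ages were separated in both genotypes. The difference was -0.97 ± 0.14 (SE) in WT, a fold of 0.511 and an adjusted p of 1.71e-05 (limma), and -1.15 ± 0.14 in *Mef2c*-het mice, a fold of 0.450 and an adjusted p of 2.55e-06.

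Probe ILMN_2698799 of *Actb* read 13.88, 13.85, 13.64 and 13.89 in WT at P1 and 13.14, 13.22, 13.46 and 13.45 at P30. Its *Mef2c*-het arrays read 13.86, 13.74, 13.69 and 14.09 at P1 and 13.17, 13.07, 12.97 and 13.22 at P30. The ages were again separated in both genotypes. The fall was -0.50 ± 0.10 (SE) in WT, with an adjusted p of 0.000339 (limma), and -0.74 ± 0.10 in *Mef2c*-het mice, with an adjusted p of 6.26e-06.

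Probe ILMN_1377923 was the *Actb* probe furthest below WT in *Mef2c*-het mice at P30. It read 13.42, 13.57, 13.03 and 13.26 in WT at P1 and 12.98, 13.20, 13.13 and 13.32 at P30. The *Mef2c*-het arrays read 13.31, 13.26, 13.41 and 13.20 at P1 and 12.84, 12.65, 12.71 and 12.97 at P30. The WT ages overlapped, with replicate 5 at P1 below 3 of the 4 P30 arrays, and the *Mef2c*-het ages did not. The WT difference of -0.16 ± 0.11 (SE) had an adjusted p of 0.207 (limma), and without replicate 5 of WT P1 it was -0.26, with an adjusted p of 0.0342. In *Mef2c*-het mice the difference was -0.51 ± 0.11, with an adjusted p of 0.000643. Low P30 *Mef2c*-het values of an *Actb* probe, taken here to be this one, were part of the choice of the members. They favour a fall in *Mef2c*-het mice, so this p-value is no independent support for it.

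*Actg1*, the gene of gamma-actin, was dim on its only probe and fell with age in both genotypes. It read 7.61, 7.74, 7.66 and 7.83 in WT at P1 and 7.40, 7.31, 7.39 and 7.50 at P30, where it was detected on 3 of 4 arrays. Among *Mef2c*-het mice the values were 7.65, 7.97, 7.60 and 7.88 at P1 and 7.34, 7.32, 7.43 and 7.65 at P30. The WT ages were separated, and *Mef2c*-het replicate 7 at P30 lay among the P1 arrays. The fall was -0.31 ± 0.09 (SE) in WT, with an adjusted p of 0.00759 (limma), and -0.34 ± 0.09 in *Mef2c*-het mice, with an adjusted p of 0.00424.

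*Acta2*, the alpha-actin of smooth muscle, had 3 probes, none with separated ages. Probe ILMN_2923445 read 7.51, 7.70, 7.38 and 7.83 in WT at P1 and 8.22, 8.16, 7.95 and 7.66 at P30. Its *Mef2c*-het values were 7.88, 7.81, 7.63 and 7.73 at P1 and 7.76, 7.56, 7.53 and 8.16 at P30. WT replicate 7 was low and *Mef2c*-het replicate 7 high among their P30 groups. The age difference was 0.39 ± 0.14 (SE) in WT, with an adjusted p of 0.0266 (limma), and -0.01 ± 0.14 in *Mef2c*-het mice, with an adjusted p of 0.962. The WT call was lost with sex as a covariate (0.29, adjusted p of 0.206), with male mice only (0.17, adjusted p of 0.613) and without replicate 1 or 5 of WT P1 or replicate 2 or 3 of WT P30, with adjusted p from 0.0651 to 0.0863.

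Probe ILMN_2710354 of *Acta2* was detected on 2 of 4 WT arrays at P1 and on 3 of 4 at P30, with means of 7.31 ± 0.10 (SD, n = 4) and 7.52 ± 0.14. Its WT difference of 0.21 had an adjusted p of 0.0431 (limma), against 0.376 with male mice only, 0.129 with sex as a covariate, 0.0575 with no filter and between 0.0517 and 0.14 without replicate 1, 5 or 8 of WT P1 or replicate 2 or 3 of WT P30. Probe ILMN_2710353 differed by 0.13 in WT and 0.17 in *Mef2c*-het mice, with adjusted p of 0.164 and 0.078. Of these 3 probes the call in WT at P30 against P1 thus held for 2, each dependent on single arrays.

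A further probe, ILMN_2693895, carries in the table a symbol that RefSeq lists as an older synonym of *Acta2*, without a gene number, and was left out of the members. It read 8.90, 9.15, 8.70 and 9.60 in WT at P1 and 10.53, 10.59, 10.01 and 9.68 at P30. For *Mef2c*-het mice the readings were 9.39, 9.46, 9.16 and 9.17 at P1 and 9.87, 9.30, 9.33 and 10.42 at P30. Its deviations from the group means correlated with those of ILMN_2923445 at r = 0.97 over the 16 arrays, against 0.742 and 0.382 for the other *Acta2* probes. The WT difference was 1.12 ± 0.25 (SE), with an adjusted p of 0.00108 (limma), and that in *Mef2c*-het mice 0.44 ± 0.25, with an adjusted p of 0.153.

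Beside *Acta2*, markers of smooth muscle and pericytes gave a mixed picture with age. In WT 3 of 12 tested probes rose and 3 fell, led by *Vtn* of pericytes, which rose by 0.55, and *Smtn* of smooth muscle, which fell by 0.49. *Tagln*, *Cnn1*, *Myh11* and *Lmod1*, which define contractile smooth muscle, were detected on at most 3 of the 16 arrays and were not tested. The log2 of the summed linear signal of the 12 probes ranged from 11.68 to 11.94 in WT at P1 and from 11.81 to 11.99 at P30. In *Mef2c*-het mice it ranged from 11.73 to 11.96 and from 11.75 to 11.99. The sum leans on *Vtn*, the brightest of these probes. The part of these cells in the *Acta2* values was not tested.

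Over the members, 6 of the 12 tested probes were called higher and 3 lower at P30 in WT. Among all probes tested, 28.0% were called higher and 31.7% lower. In *Mef2c*-het mice 2 were called higher and 4 lower, against 26.9% and 31.4% of all probes. The counts include *Myl1* in both genotypes and *Actb* ILMN_1377923 in *Mef2c*-het mice, whose P30 values were part of the choice. The probes called in the same direction in both genotypes were *Myl1*, the brighter *Mylk* probe, ILMN_2617433 and ILMN_2698799 of *Actb* and *Actg1*. The shares of members called lower were thus near the background, and 12 probes are few.

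**Figure D3:**
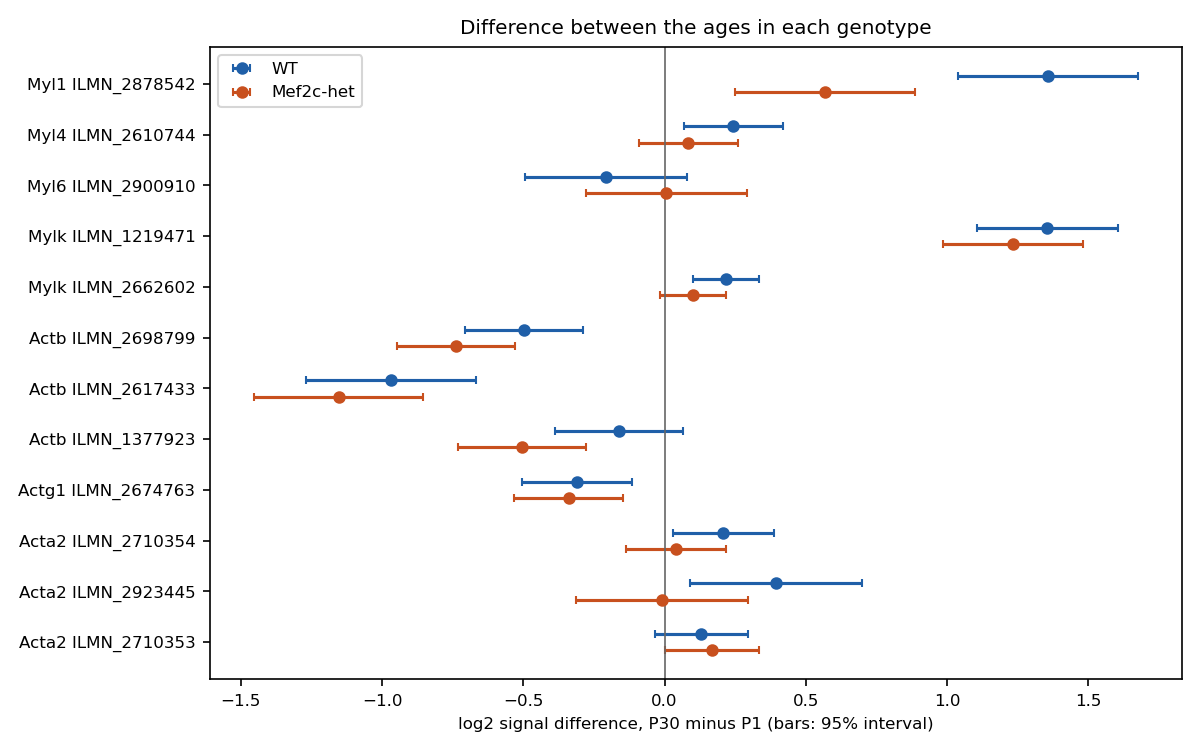
Difference in log2 signal between P30 and P1 (horizontal axis) for the 12 tested member probes, in WT and in *Mef2c*-het mice, with 95% intervals from limma. *Mylk* ILMN_1219471 differed by 1.36 and 1.23, *Actb* ILMN_2617433 by -0.97 and -1.15, and *Myl1* by 1.36 and 0.57.

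In newborn mice no member passed the test between the genotypes. At P1, 8 of the 12 tested probes lay above WT and 4 below it in *Mef2c*-het mice, between -0.10 and 0.16 on the log2 scale, with a median of 0.05. None was called with an adjusted p under 0.05 (limma) and none had an unadjusted p under 0.05, against 0.0135% and 2.28% of all probes tested. For *Myl1* the difference was 0.16 ± 0.15 (SE), with a 95% interval from -0.16 to 0.48, and it was 0.01 in a fit of the P1 arrays with a replicate block. For *Actb* ILMN_1377923 it was -0.02, with an interval from -0.25 to 0.20, and for *Acta2* ILMN_2923445 it was 0.16, with an interval from -0.15 to 0.46. These intervals do not show that the genotypes were alike.

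At P30, the comparison by which the members were chosen, 10 of the 12 probes lay below WT and 2 above it in *Mef2c*-het mice, with a median of -0.08, beside -0.01 over all 14777 probes, of which 54.4% were lower. *Myl1* differed by -0.63, a fold of 0.646, and stood second from the lowest of all probes tested, after the chemokine *Ccl9* at -0.78. Its normalized groups overlapped, since *Mef2c*-het replicate 5 at 8.47 lay above WT replicate 6 at 8.40. Without that *Mef2c*-het array the value was -0.75, without WT replicate 2 it was -0.52, and with background correction it was -0.99.

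The 3 bright *Actb* probes were all lower in *Mef2c*-het mice at P30, at -0.37 for ILMN_1377923, -0.21 for ILMN_2698799 and -0.19 for ILMN_2617433. Of these probes only the first had groups that did not overlap, and it stood at position 22 from the lowest. *Actb* ILMN_2588055, detected on no array and not tested, was also lower without overlap, at -0.13. Among all probes tested 1.20% were lower in *Mef2c*-het mice without overlap and 0.690% higher, counts from which nothing is read here because the same values chose the members. *Acta2* ILMN_2923445 differed by -0.25 with overlapping groups, and by between -0.61 and -0.11 over 18 alternative settings. The value of -0.61 came from the larger array clusters only. That setting leaves out *Mef2c*-het replicate 7, which was high in its group, and WT replicates 6 and 7, of which replicate 7 was low. The other *Acta2* member probes lay near 0, at -0.02 for ILMN_2710353 and -0.09 for ILMN_2710354. The probe of the older *Acta2* synonym, ILMN_2693895, differed by -0.47 ± 0.25 (SE) with overlapping groups, at position 7 from the lowest of all probes tested. *Actg1* and *Myl6* were the members above 0, at 0.04 and 0.12, and the *Mylk* and *Myl4* probes lay between -0.07 and -0.05. The endothelial markers were lower in *Mef2c*-het mice at all 9 tested probes, with a median of -0.08. The smooth muscle and pericyte markers were lower at 10 of 12, with a median of -0.05. At P1 all 9 endothelial probes were higher in *Mef2c*-het mice, with a median of 0.02. Of the 12 smooth muscle and pericyte probes 8 were higher at P1, with a median of 0.03. The part of these cells in the *Acta2* value was not tested.

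**Figure D4:**
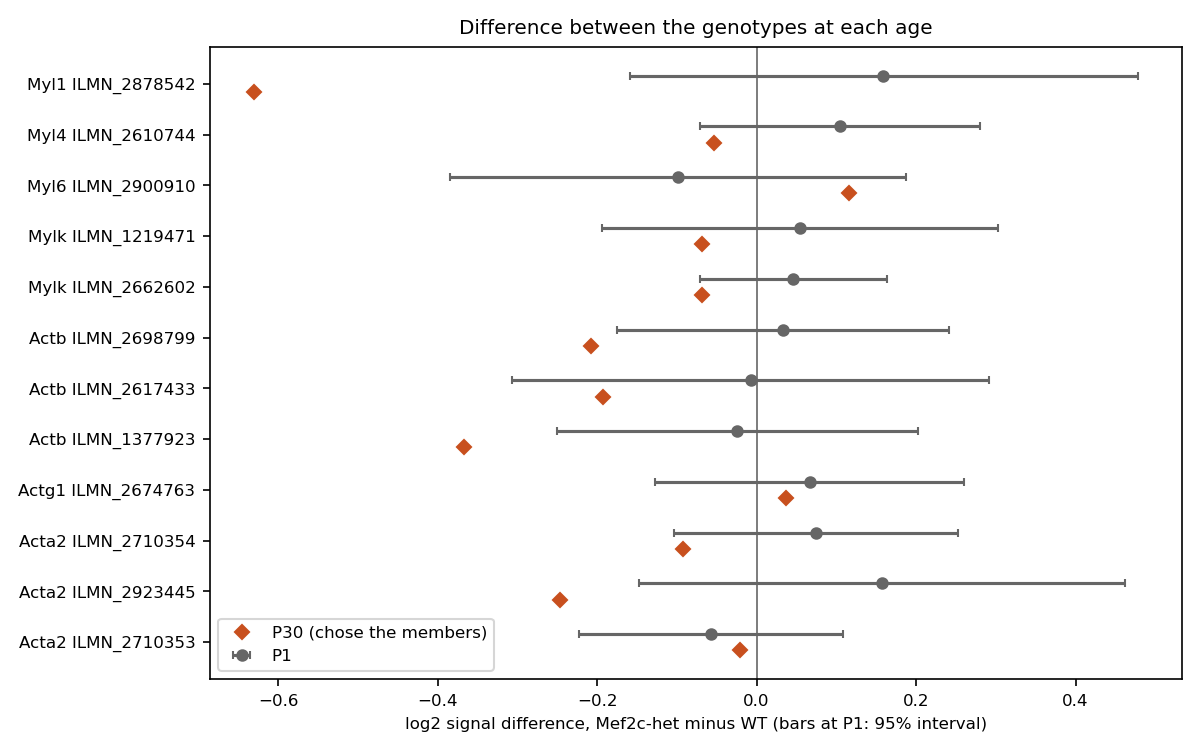
Difference in log2 signal between *Mef2c*-het and WT mice (horizontal axis) for the 12 tested member probes at P1, with 95% intervals from limma, and at P30, drawn without intervals because these values chose the members. At P1 the values lay between -0.10 and 0.16, and at P30 *Myl1* lay at -0.63.

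The difference between the genotype values of the ages was -0.79 ± 0.21 (SE) for *Myl1*, -0.34 ± 0.15 for *Actb* ILMN_1377923 and -0.40 ± 0.20 for *Acta2* ILMN_2923445. It includes the P30 values that chose the members and is a description as well. For *Mylk* ILMN_1219471 it was -0.12 ± 0.17, and for *Actg1* it was -0.03 ± 0.13.

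To find genes whose pattern was most like a member, deviations from the 4 group means were correlated over the 16 arrays with those of every tested probe of another gene. These values are given without a test, and the arrays share their normalization. Nearest to *Myl1* were *Tspan14* (r = 0.818), *Gpatch11* (0.813), *Slmap* (0.79), *Git2* (0.784) and *Tollip* (0.773). Over the plain signals *Tollip* reached 0.927 and *Gpatch11* 0.88, whereas *Tspan14*, which fell with age in WT by 0.55 on the log2 scale, stood at -0.736.

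Nearest to *Acta2* ILMN_2923445 were *Eln*, which encodes the elastin of artery walls, at r = 0.888, *Rbpms* at 0.837, *Zbtb7b* at 0.814, *Aldh1a2*, an enzyme of retinoic acid synthesis found in meninges, at 0.795 and *Lama1*, a laminin of the basement membrane, at 0.793. Over the plain signals only *Zbtb7b* (0.691) and *Aldh1a2* (0.597) among these 5 were positive beyond 0.04. Nearest to the brightest *Actb* probe, ILMN_2698799, were *2510009E07Rik* and *Pwwp2b* at 0.927, *Stat3* at 0.92, *Higd1b* at 0.918 and *Igf1r* at 0.916. Over the plain signals *2510009E07Rik* reached 0.979, and *Stat3*, *Higd1b* and *Igf1r* stood between 0.678 and 0.893. *Pwwp2b*, which rose with age in WT by 1.12, stood at -0.755. Among the members themselves, the deviations of *Myl1* correlated most highly with those of *Actg1*, at 0.235. With *Mylk* ILMN_1219471 they stood at -0.402, although the plain signals of that pair correlated at 0.803.

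The remaining genes of the contractile apparatus were taken from lists. Beside the counts of called probes below, 31.7% of all tested probes were called lower and 28.0% higher with age in WT. In *Mef2c*-het mice these shares were 31.4% and 26.9%. Of the other myosin light chains 3 of 7 tested probes were called lower with age in WT and none higher, with a median of -0.18 beside -0.03 over all probes. *Myl6b*, a further essential light chain, fell most, by 0.44 on the log2 scale, with an adjusted p of 0.000199 (limma). In *Mef2c*-het mice 4 of 7 were called lower, and the other 3 lay above 0 without a call. Of the myosin heavy chains 3 of 7 probes were called lower and 2 higher in WT. *Myo6*, a motor that walks towards the minus end of actin filaments, rose by 1.50, and *Myh10*, the heavy chain of nonmuscle myosin IIB, fell by 0.70.

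Of the light chain kinases and the phosphatase that opposes them, 4 of 11 tested probes were called higher in WT and none lower. *Ppp1r14a*, an inhibitor of that phosphatase, rose by 1.29, or 2.44-fold, from 7.18 to 8.47, with an adjusted p of 2.52e-09 (limma), and by 1.26 in *Mef2c*-het mice. The other actins and the actin-related proteins were called higher at 8 and lower at 3 of 16 probes. Among them *Actr1b* rose by 1.08 and *Actr1a* fell by 0.90, both of the dynactin complex.

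Of the probes for genes of proteins that bind actin monomers or filaments, 20 of 41 were called lower and 9 higher in WT. Among all probes tested 31.7% were called lower and 28.0% higher. The median of the list was -0.23. The 41 probes stand for 26 genes, and several are of the same gene, such as *Marcksl1*, so they are not independent. *Marcksl1*, a membrane-bound regulator of actin, had the largest fall, from 12.91 to 10.09, or -2.82, with an adjusted p of 2.87e-06 (limma). *Tmod1*, which caps filament ends, had the largest rise, of 1.57. In *Mef2c*-het mice 21 probes were called lower and 7 higher, and no list had a called probe in *Mef2c*-het against WT mice at P1.

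*Srf* itself rose by 0.68 in WT and 0.67 in *Mef2c*-het mice. Its cofactor *Mrtfa* rose by 0.28, the only other tested gene of that list, since 3 more with a probe were not detected on enough arrays. The genes of the striated muscle sarcomere and muscle MEF2 targets were mostly dim: of 25 with a probe, 9 were tested. Of their 10 tested probes 3 rose and 1 fell in WT, led by *Actn2*, an alpha-actinin also found at synapses, which rose by 0.90, and *Actn3*, which fell by 0.15. At P30 8 of the 10 were lower in *Mef2c*-het mice, with a median of -0.03.

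**Figure D5:**
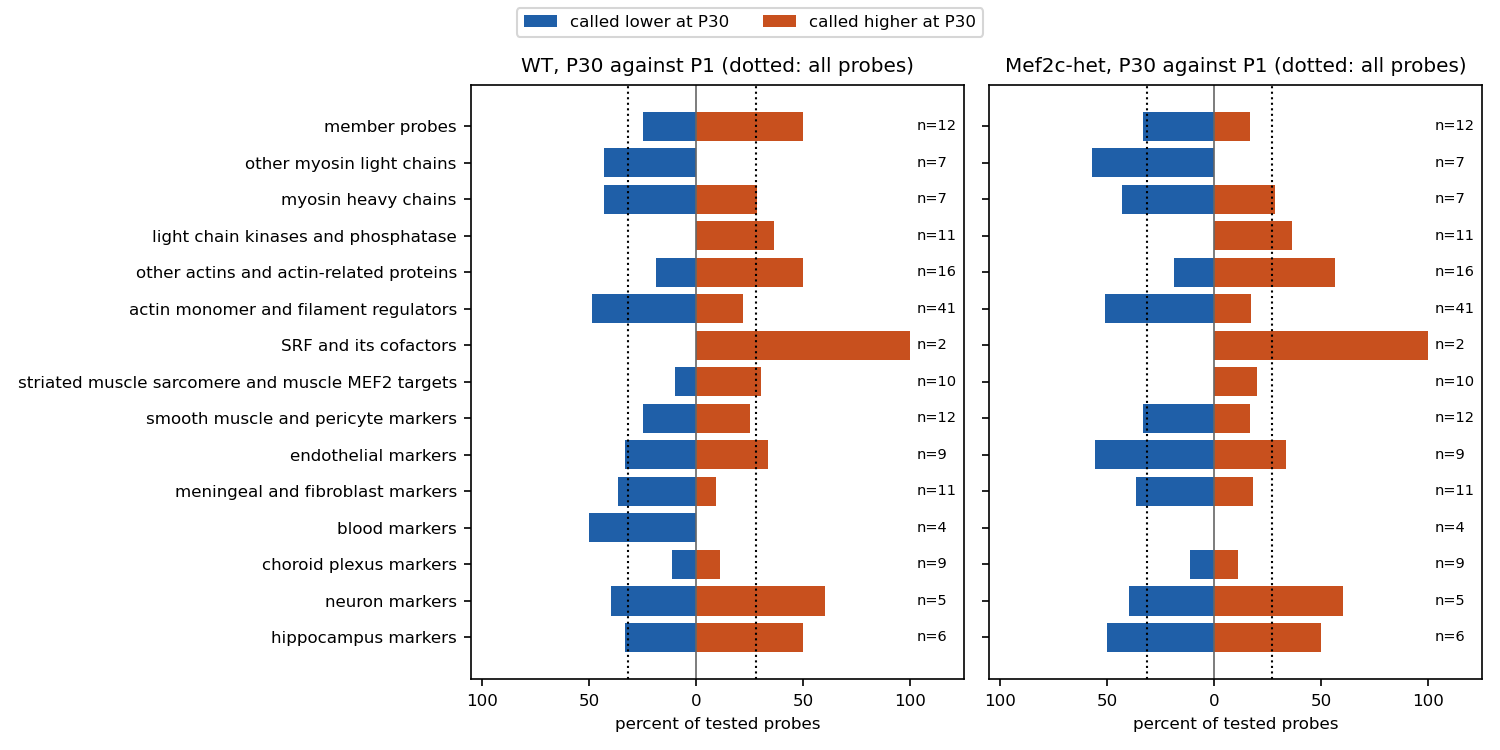
Percent of tested probes called lower (to the left) or higher (to the right) at P30 against P1, for the member probes and each gene list, in WT and in *Mef2c*-het mice, with the number of tested probes at the right. Dotted lines give the percent among all probes, 31.7% and 28.0% in WT. Of 41 probes of actin monomer and filament regulators 20 were called lower in WT.

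Of the cell type lists not yet given, endothelial markers were called higher at 3 and lower at 3 of 9 probes in WT, from *Ly6c1*, which rose by 2.05, to the tight junction gene *Cldn5*, which fell by 1.46. Meningeal and fibroblast markers were called higher at 1 and lower at 4 of 11, where *Dcn* rose by 0.89 and *Igf2* fell by 0.85. Blood markers were called lower at 2 of 4, where the alpha-globin gene *Hba-a1* fell by 0.36, and choroid plexus markers higher at 1 and lower at 1 of 9, where *Kl* rose by 1.31 and *Otx2* fell by 0.90. Neuron markers were called higher at 3 and lower at 2 of 5, where *Syt1* of synaptic vesicles rose by 2.16 and *Stmn2* of growing axons fell by 0.87, and hippocampus markers higher at 3 and lower at 2 of 6, where *Wfs1* rose by 2.45 and *Prox1* fell by 0.71.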

How the data were processed

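Hippocampal RNA of 16 mice was read on Illumina MouseRef-8 v2 beadchips. The table that the authors deposited gives 4 columns per array: an intensity averaged over the beads of a probe (linear, before any normalization), its standard error in the same unit, a detection p-value relative to control beads, and the count of beads. Median counts of 36 to 39 beads and a median standard error of 3.38% to 4.05% set the error of a signal, and the number of arrays, 4 in each group, limits the precision of every comparison. The submitters' processing notes name lumi and limma without versions, and whether background was subtracted is not given in the sources used here. The study's methods state a log2 transformation and quantile normalization.

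Log2 of the deposited intensity was quantile normalized over all 16 arrays, and the probes detected (p under 0.05) by 4 or more arrays were fitted with limma 3.58.1 in R 4.3.3, with a mean for each of 4 groups, eBayes and two-sided Benjamini-Hochberg adjustment over 14777 probes. A probe was called at an adjusted p under 0.05. The p-values of limma come from this model, with 4 arrays a group, and no label says that the mice were from separate litters. Exact permutation tests were two-sided. Probes were named through RefSeq for 25376 of 25697. No 2 arrays held identical values. The steps were tested on simulated data.

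The members and all gene lists were chosen with earlier results of these data known. Named were every member probe, *Mef2c*, in each of 14 lists the gene of largest rise and fall among probes called between the ages in WT, list genes called at P1, and the 5 genes most like *Myl1*, *Acta2* and the brightest *Actb* probe. Sex was read from *Xist* and Y-linked probes. Replicate numbers shared by the genotypes were compared, with correlations of deviations from group means between 0.091 and 0.82 at P1 and between -0.522 and 0.697 at P30, so they were not taken as pairs. The alternatives were other normalizations, filters, background correction and variance models, a single probe per gene, array clusters, sex, single ages, a replicate block and leaving out each array.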

Additional observations from a re-analysis of the deposited data

Results flagged for a closer look

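Within a group of 4 arrays, a highest or lowest array that stood far from the other 3 was looked for in 68 groups, and 7 were found, where about 1 in 20 groups would be by chance. The gap to the nearest array, as a share of the range of the group, was 0.883 for *Myl1* ILMN_2878542, where *Mef2c*-het P30 replicate 5 at 8.47 was the highest. It was 0.891 for *Myl6*, with *Mef2c*-het P30 replicate 7 at 12.42 the lowest, and 0.833 for *Myl4*, with *Mef2c*-het P30 replicate 6 at 8.72 the lowest in a group that spans very little. It was 0.844 for *Mylk* ILMN_1219471, with *Mef2c*-het P1 replicate 2 at 7.33 the lowest, and 0.864 for *Mylk* ILMN_2662602, with WT P1 replicate 8 at 7.50 the highest. For probes detected on no array, it was 0.837 for *Actc1* ILMN_2767216 (*Mef2c*-het P30 replicate 6 the highest) and 0.867 for *Myl1* ILMN_2694907 (WT P30 replicate 7 the lowest). No member had all *Mef2c*-het arrays on opposite sides of the WT mean at the 2 ages.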

How the results depend on the processing

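No member comparison that was called changed its direction under any alternative. The member probes called between the ages in WT, 9 of 12, numbered 5 of 6 with a single probe per gene and 5 of 12 with male mice only, where WT P1 has 1 mouse that is assumed to vary like the others. Leaving out an array gave 7 to 9. The probes called at P1 in *Mef2c*-het against WT mice numbered 2 of all tested, and 0 with scaling to a common median, with the P1 arrays alone and with sex as a covariate. They numbered 1 with cyclic loess, no filter, larger array clusters only and the P1 arrays with an array cluster block, and 0 to 1 with each array left out. With a replicate block they numbered 3 with the P1 arrays alone, none of them a member, and the genotype difference of *Myl1* at P30 was -0.63. That value was -0.63 in the main setting, -0.985 with normexp background correction, and between -0.749 and -0.524 with each array left out. The cause of these changes was not tested. Dim signals near background, as for *Actc1*, limit what the arrays can show.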
